A study of Mus musculus with 10 samples.

Results

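A set of 10 genes of calcium cycling in heart muscle were followed in mouse hearts exposed to endotoxin with or without artesunate. They were the rows of the expression table whose gene symbol was Atp2a2, Pln, Ryr2, Casq2, Hrc, Trdn, Jph2, Slc8a1, Cacna1c or Cacnb2, that is 10 of 30074 genes, and all 10 symbols were found once. They were chosen by name and role, with earlier results of these data known.

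In each heartbeat, calcium entering through the L-type channel of the surface membrane opens the ryanodine receptor of the sarcoplasmic reticulum (SR), and the calcium released drives contraction. Relaxation follows when the pump SERCA2 returns calcium to the SR, under the brake of phospholamban, and the sodium-calcium exchanger removes the rest from the cell. Luminal buffers hold calcium beside the release channel, and junctophilin keeps the SR membrane close to the transverse tubule.

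RNA was sequenced from hearts of wild-type C57BL/6 male mice, aged 8 to 12 weeks and weighing about 25 g, in 2 groups of 5. All 10 mice received LPS (lipopolysaccharide, a bacterial endotoxin) into the peritoneum as a model of septic cardiomyopathy. The LPS+ART group was also given artesunate, an antimalarial endoperoxide, at 50 mg/kg by the same route, with the first dose 10 min ahead of LPS and the second 4 h after it, and the LPS+Vehicle group had vehicle. Cardiac function was assessed at 24 h after LPS; when the hearts were taken for RNA is not stated in the sources used here. Hearts without LPS and hearts given artesunate alone were not analysed here, so no value below can be set against an unstimulated heart.

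The values are FPKM, reads per kilobase of gene scaled to the reads assigned to genes, and levels can be compared between genes. The LPS+ART libraries held 30684056 to 36679402 recovered reads and the LPS+Vehicle libraries 29980900 to 54222272. Reads of mitochondrially encoded genes took 24.68 to 30.23% of the former and 20.99 to 23.7% of the latter. LPS+Vehicle replicates 2 and 5 were nearly alike, with a chi-square on read pairs of 1.68 per degree of freedom, where all other pairs of one group gave 12.4 to 43.4, and calls lost when they were averaged are named. LPS+ART replicates 3 and 4 differed less from each other (15.8 on the same measure) than from the other treated hearts (30.7 to 43.4). The hearts carried their muscle markers: the summed level of 10 cardiomyocyte genes such as Myh6 and Tnnt2 was 11762 to 14120 FPKM in treated and 9760 to 10701 FPKM in vehicle hearts, with 6 of the 10 higher and 2 lower in LPS+ART. The sum of 8 macrophage and monocyte markers was 14.1 to 25.3 FPKM in LPS+ART against 37.5 to 66.9, with 6 of 7 tested genes lower and 1 higher. That of 8 fibroblast markers was 270 to 403 against 343 to 551 FPKM, with 4 of 8 lower and 0 higher. Of 6 tested smooth muscle and pericyte markers 5 were lower (summed level 123 to 176 against 184 to 247 FPKM), of 8 endothelial markers 5 were lower and 1 higher (160 to 233 against 174 to 225 FPKM), and of 5 tested erythroid genes 4 were higher (56.9 to 129 against 20 to 66.7 FPKM). Over all genes tested, 11.8% were higher and 52.9% lower. After median-ratio scaling, where those shares were 29.9% and 30.3%, cardiomyocyte markers gave 8 higher and 0 lower, and endothelial markers 3 and 3. Macrophage and monocyte markers then gave 1 higher and 5 lower, fibroblast 0 and 4, smooth muscle and pericyte 0 and 2, and erythroid 5 and 0. In whole hearts, fewer cells of a type and less RNA per cell cannot be told apart, and the part of these markers in the results below was not tested.

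Artesunate-treated hearts held less phospholamban, junctophilin 2, sodium-calcium exchanger and L-type beta subunit RNA than vehicle hearts, and more RNA of the histidine-rich calcium-binding protein. SERCA2 and the ryanodine receptor, the pump and the release channel themselves, differed by less than the spread between hearts. All 10 genes passed the expression filter of a mean of 0.5 FPKM. At a limma adjusted p under 0.05 over 13314 genes tested, 1 of the 10 was higher in LPS+ART and 5 were lower, where 11.8% of all genes were higher and 52.9% lower. Most genes were thus lower in these values, and the share of the 10 genes called lower lay near that background, so the counts are no result about the set. Without LPS+ART replicates 3 and 4 the counts were also 1 higher and 5 lower. The median log2 fold change was -0.35 over the 10 genes and -0.27 over all genes tested. Median-ratio scaling, which moved the median of all genes to 0.02, gave 2 higher and 4 lower, against 29.9% and 30.3% of all genes. With the trend along expression level removed by cyclic loess, 1 was higher and 4 lower, against 29% and 28.7%. In 4 of the 10 genes all LPS+ART hearts lay below all LPS+Vehicle hearts, and in 1 all lay above, where 42.5% and 7.54% of all genes did so. The plot of values by heart shows these separations.

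**Figure D1:**
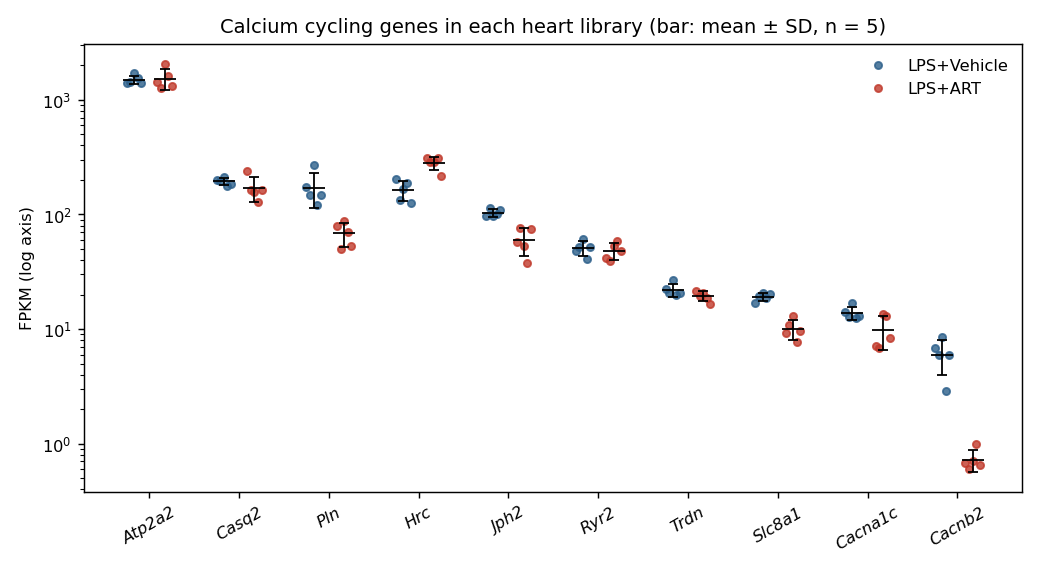
Level of the 10 calcium cycling genes in every heart, in FPKM on a log axis, ordered by their mean in LPS+Vehicle. Points are single hearts (blue LPS+Vehicle, red LPS+ART), bars the mean and SD of 5. The groups separate for Pln, Hrc, Jph2, Slc8a1 and Cacnb2, and the red points of Cacnb2 all lie between 0.597 and 0.991 FPKM.

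Promoters are shown for the 5 genes whose groups did not overlap. That choice was made from these same values, and 42.5% and 7.54% of all genes also separated, downward and upward. The sequences are RefSeq promoters of GRCm38.p6, from 250 bases before to 50 after the start, 5′ to 3′ on the gene's strand, with motif matches in capitals. Pln lies at chr10:53337436-53337735 (plus strand), Hrc at chr7:45335019-45335318 (plus strand), Jph2 at chr2:163397944-163398243 (minus strand) and Slc8a1 at chr17:81738338-81738637 (minus strand). Cacnb2 has a first start at chr2:14604056-14604355 and a second at chr2:14823842-14824141, both on the plus strand.
Pln: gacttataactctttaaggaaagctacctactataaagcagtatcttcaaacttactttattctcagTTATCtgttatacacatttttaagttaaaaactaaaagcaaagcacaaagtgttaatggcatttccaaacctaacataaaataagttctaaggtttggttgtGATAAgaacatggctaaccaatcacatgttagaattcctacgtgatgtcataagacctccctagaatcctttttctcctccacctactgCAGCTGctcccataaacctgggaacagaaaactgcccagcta
Hrc: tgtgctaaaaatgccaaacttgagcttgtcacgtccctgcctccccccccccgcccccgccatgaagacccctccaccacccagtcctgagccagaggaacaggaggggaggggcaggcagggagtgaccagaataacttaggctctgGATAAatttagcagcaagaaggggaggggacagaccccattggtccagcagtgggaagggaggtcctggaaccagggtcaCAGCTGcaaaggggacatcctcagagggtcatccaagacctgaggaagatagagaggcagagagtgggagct
Jph2: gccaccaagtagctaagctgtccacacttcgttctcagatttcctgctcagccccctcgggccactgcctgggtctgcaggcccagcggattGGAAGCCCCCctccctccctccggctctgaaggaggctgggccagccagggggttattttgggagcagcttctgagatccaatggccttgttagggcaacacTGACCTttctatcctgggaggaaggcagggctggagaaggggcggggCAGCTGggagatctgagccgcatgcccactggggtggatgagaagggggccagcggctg
Slc8a1: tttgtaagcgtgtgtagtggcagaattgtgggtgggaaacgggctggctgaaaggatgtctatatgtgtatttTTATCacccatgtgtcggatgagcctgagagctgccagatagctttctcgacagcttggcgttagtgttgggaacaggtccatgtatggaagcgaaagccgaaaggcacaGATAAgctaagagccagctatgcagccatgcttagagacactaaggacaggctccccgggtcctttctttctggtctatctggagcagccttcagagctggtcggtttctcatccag
Cacnb2 first start: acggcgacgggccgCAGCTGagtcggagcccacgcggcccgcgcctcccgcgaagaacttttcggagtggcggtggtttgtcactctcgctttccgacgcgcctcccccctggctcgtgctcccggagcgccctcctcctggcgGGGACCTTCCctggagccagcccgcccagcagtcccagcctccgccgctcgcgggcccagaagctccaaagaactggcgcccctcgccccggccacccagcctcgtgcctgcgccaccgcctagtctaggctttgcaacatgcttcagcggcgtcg
Cacnb2 second start: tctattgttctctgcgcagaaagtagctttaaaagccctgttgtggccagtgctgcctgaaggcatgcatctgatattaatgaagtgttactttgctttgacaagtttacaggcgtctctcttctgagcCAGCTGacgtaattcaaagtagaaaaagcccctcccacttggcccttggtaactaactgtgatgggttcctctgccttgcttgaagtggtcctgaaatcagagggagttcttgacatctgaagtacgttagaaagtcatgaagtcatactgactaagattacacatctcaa

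Both strands were searched for 7 motifs: MEF2, the CArG box and NF-kB (by their usual degenerate forms), the M-CAT core CATTCC, the GATA core with its flank, GATAA, the E-box CAGCTG and the nuclear receptor core AGGTCA. No matches overlapped in the sequences shown. The table held 12 promoters of 8 of the 10 genes; Atp2a2 and Trdn have no entry. CAGCTG stood in 7 of the 12 promoters, from 5 of those 8 genes, among them Pln, Hrc, Jph2 and both starts of Cacnb2. It stood in 16.3% of all 32851 promoters. Jph2 has overlapping windows, so each of its matches counts more than once. GATAA stood in 3 of the 12, those of Pln, Hrc and Slc8a1, and in 25.4% of all promoters. An NF-kB match was found in 3 of the 12, at Jph2 and the first start of Cacnb2, and in 8.46% of all promoters. AGGTCA matched 3 of the 12, at Jph2 and Ryr2, and 16.3% of all promoters. MEF2 matched only Casq2 among these genes (3.19% of all promoters), and neither the CArG box (1.63%) nor CATTCC (14.7%) matched any of them. Among the sequences shown, G and C made up from 36% at Pln to 71.7% at the first start of Cacnb2, where the second start held 44%, and the median of all promoters was 52.7%. CAGCTG occurred in a gene that was higher (Hrc) and in one that was lower (Pln). The matches describe these windows only, and their part in the RNA levels was not tested.

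SERCA2, encoded by Atp2a2 (ENSMUSG00000029467), pumps calcium back into the SR and was the most abundant of the 10 genes in both groups. Its level was 1444, 1266, 2041, 1608 and 1315 FPKM in LPS+ART replicates 1 to 5 and 1400, 1419, 1701, 1551 and 1410 FPKM in LPS+Vehicle replicates 1 to 5. The groups overlapped, and replicate 3 was the highest of each. The means were 1535 ± 312 and 1496 ± 130 FPKM (SD, n = 5 each), a log2 fold change of 0.02 (SE 0.12, limma adjusted p = 0.904). After median-ratio scaling Atp2a2 passed the threshold as higher, at 0.41 (limma adjusted p = 0.0361), while after loess it stood at -0.23 (limma adjusted p = 0.154), so its direction depended on the scaling.

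Phospholamban, encoded by Pln (ENSMUSG00000038583), inhibits SERCA2 until it is phosphorylated. Its level was 79.9, 50.3, 88, 70.5 and 52.8 FPKM in the LPS+ART hearts and 174, 148, 269, 120 and 147 FPKM in the LPS+Vehicle hearts. Every treated heart lay below every vehicle heart, and the vehicle values spread more widely, with replicate 3 the highest. The mean of 68.3 ± 16.5 FPKM in LPS+ART was 2.51-fold lower than the 171 ± 57.7 FPKM in LPS+Vehicle (SD, n = 5 each), and the log2 fold change was -1.29 (SE 0.22, limma adjusted p = 3.0e-04). It was called lower also after median-ratio scaling (-0.90, limma adjusted p = 0.00472) and after loess (-1.27, limma adjusted p = 7.3e-04).

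The reads given to Pln may not all be its own. Gm47644 (ENSMUSG00000112734), a noncoding gene on the opposite strand chosen after its values were seen, shares 1644 of the 2759 exon bases of Pln (59.6%) in GENCODE M21. The library kit as described does not mark strand, and how the counting treated shared bases is not given in the sources used here, so reads of this stretch cannot be told apart. Gm47644 stood at 0.385, 0.165, 0.241, 0.0444 and 0.322 FPKM in LPS+ART and at 13.8, 11.7, 14.9, 7.46 and 12.8 FPKM in LPS+Vehicle. It rested on 4 to 38 reads a library in the former and 606 to 2192 in the latter. By means it was 52.5-fold lower in LPS+ART (log2 fold change -3.39, SE 0.16, limma adjusted p = 8.2e-07). Its fold difference was larger than that of Pln itself, but its difference in FPKM was smaller. The means were 0.231 against 12.1 FPKM for Gm47644 and 68.3 against 171 FPKM for Pln. Each treated library held 4336 to 8040 reads of Pln, and each vehicle library 9892 to 40196. The part of Gm47644 in the Pln difference was not tested. Of the other 9 genes, none shared more than 4.67% of its exon bases with a gene on the opposite strand in that annotation.

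Within each heart, Pln was also low against the pump that it restrains. The ratio of Pln to Atp2a2, which no scaling of a library can move, was 0.0554, 0.0397, 0.0431, 0.0439 and 0.0401 in LPS+ART and 0.124, 0.104, 0.158, 0.0771 and 0.104 in LPS+Vehicle. The groups did not overlap, and the mean log2 ratio differed by -1.31 (two-sided exact permutation p = 0.00794, the smallest that 5 against 5 allows, adjusted p = 0.0258 over 13 ratios). All ratio tests used log2 of FPKM + 1 of each gene, and the ratios printed are of FPKM.

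Sarcolipin, which inhibits the pump mainly in atria, and DWORF, a micropeptide that counters phospholamban, are encoded by Sln and Strit1. Strit1 was higher in LPS+ART, with 13.9 ± 5.39 against 8.03 ± 1.73 FPKM (SD, n = 5 each, log2 fold change 0.67, limma adjusted p = 0.0223). That call was lost without LPS+ART replicate 4 or 5 or LPS+Vehicle replicate 1 or 5 (limma adjusted p = 0.0554, 0.0525, 0.0562 and 0.0537). Sln was at most 0.0989 FPKM in 4 LPS+ART hearts and 5.5 in replicate 5, and it reached 1.38 and 2.1 FPKM in LPS+Vehicle replicates 2 and 5. The same 3 hearts held the atrial light chain gene Myl7 at 71.4, 22.6 and 19.6 FPKM, against at most 0.22 in the other 7. As a share of the summed FPKM of Pln, Sln and Strit1, Pln made up 81.5 ± 9.23% in treated and 94.8 ± 1.65% in vehicle hearts (SD, n = 5 each).

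The release channel and its luminal partners did not move together. Ryr2 (ENSMUSG00000021313), the cardiac ryanodine receptor through which the SR releases calcium, stood at 41.8, 39.2, 53.4, 58.8 and 47.7 FPKM in LPS+ART and at 47.9, 52, 61.2, 41 and 52.4 FPKM in LPS+Vehicle. The groups overlapped almost entirely, and the log2 fold change was -0.08 (SE 0.13, limma adjusted p = 0.597). Trdn (ENSMUSG00000019787) encodes triadin, which anchors the luminal buffers to the channel. It ran from 16.5 to 21.7 FPKM in LPS+ART and, overlapping, from 19.9 to 26.8 FPKM in LPS+Vehicle, with a log2 fold change of -0.17 (SE 0.10, limma adjusted p = 0.137). Neither gene passed the threshold after scaling (limma adjusted p = 0.0879 for Ryr2 and 0.097 for Trdn), where both fold changes were above 0, at 0.30 and 0.20.

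Casq2 (ENSMUSG00000027861) encodes calsequestrin 2, the main calcium store protein of the SR lumen. Its level was 241, 162, 158, 129 and 163 FPKM in LPS+ART and 199, 196, 211, 179 and 185 FPKM in LPS+Vehicle. LPS+ART replicate 1 lay above every vehicle heart and the other 4 treated hearts below every one. The log2 fold change was -0.21 (SE 0.14, limma adjusted p = 0.193), and without LPS+ART replicate 1 it was -0.34 and called (limma adjusted p = 0.00589), so that 1 heart decided the call. After median-ratio scaling it was 0.18 (limma adjusted p = 0.197).

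Hrc (ENSMUSG00000038239) was the gene of the 10 that rose. It encodes the histidine-rich calcium-binding protein, a luminal buffer that binds triadin and the pump. Its level was 311, 285, 285, 309 and 218 FPKM in LPS+ART and 202, 133, 166, 189 and 127 FPKM in LPS+Vehicle. All treated hearts lay above all vehicle hearts, with the lowest treated heart close to the highest vehicle heart. The mean of 282 ± 37.5 FPKM was 1.72-fold higher than 163 ± 33.2 FPKM (SD, n = 5 each, log2 fold change 0.79, SE 0.14, limma adjusted p = 5.4e-04). The rise was called also after median-ratio scaling (1.19, limma adjusted p = 1.4e-04) and after loess (0.74, limma adjusted p = 0.00112). The 10 cardiomyocyte markers divided, with 6 higher, 2 lower (Tnnt2 at -0.26 and Myom2 at -0.43) and a median log2 fold change of 0.27. After median-ratio scaling 8 were higher and 0 lower, and the part of these markers in the Hrc result was not tested.

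The balance between both luminal buffers shifted within hearts. The ratio of Hrc to Casq2 was 1.29, 1.76, 1.81, 2.39 and 1.34 in LPS+ART and 1.02, 0.679, 0.789, 1.05 and 0.685 in LPS+Vehicle. Hrc RNA exceeded Casq2 RNA in every treated heart and in 2 of the vehicle hearts, and the groups did not overlap (log2 ratio difference 1.01, exact permutation p = 0.00794, adjusted p = 0.0258). Against the release channel, Hrc to Ryr2 was 5.98 ± 1.3 in treated and 3.31 ± 1.03 in vehicle hearts (SD, n = 5 each; log2 ratio difference 0.88, exact permutation p = 0.0159, adjusted p = 0.0413). The ranges of that ratio overlapped, and its call was lost when any one of LPS+ART replicates 1 to 4 or LPS+Vehicle replicate 2 or 5 was left out (adjusted p = 0.0516 to 0.0737), when the latter pair was averaged (adjusted p = 0.0516) and after loess (adjusted p = 0.0619). Casq2 to Ryr2, Trdn to Ryr2 and Ryr2 to Atp2a2 did not pass the threshold, with log2 ratio differences of -0.13, -0.09 and -0.10 (adjusted p = 0.653, 0.647 and 0.557).

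**Figure D2:**
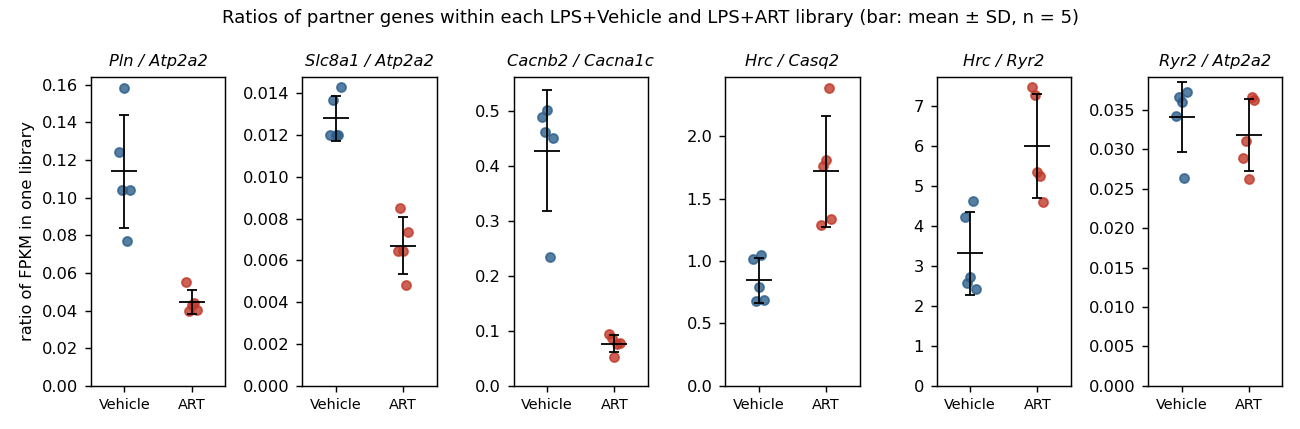
Ratios of FPKM between partner genes inside each heart, on linear axes from 0; points are hearts and bars the mean and SD of 5. Pln to Atp2a2, Slc8a1 to Atp2a2 and Cacnb2 to Cacna1c separate downward in LPS+ART, Hrc to Casq2 upward, while Hrc to Ryr2 and Ryr2 to Atp2a2 overlap.

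Jph2 (ENSMUSG00000017817) encodes junctophilin 2, which bridges the SR and the transverse tubule. Its level was 57.7, 76.4, 52.7, 37.6 and 74.1 FPKM in LPS+ART and 97.1, 115, 96.3, 101 and 109 FPKM in LPS+Vehicle. The treated hearts all lay lower and spread more, with replicate 4 the lowest. The mean of 59.7 ± 16 FPKM was 1.74-fold lower than 104 ± 8.23 FPKM (SD, n = 5 each, log2 fold change -0.83, SE 0.17, limma adjusted p = 0.00106). It was called lower after median-ratio scaling (-0.44, limma adjusted p = 0.0197) and after loess (-0.77, limma adjusted p = 0.00131). Jph1, the junctophilin better known from skeletal muscle, went the other way at a lower level, with 9.48 ± 2.19 against 6.86 ± 0.836 FPKM (log2 fold change 0.40, limma adjusted p = 0.0255). The Jph1 call was lost without any one of LPS+ART replicates 2 and 3 and LPS+Vehicle replicates 1, 2 and 5 (limma adjusted p = 0.0523 to 0.0619), without LPS+ART replicates 3 and 4 together (limma adjusted p = 0.0877) and with LPS+Vehicle replicates 2 and 5 averaged (limma adjusted p = 0.0544).

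Slc8a1 (ENSMUSG00000054640) encodes the sodium-calcium exchanger NCX1, the main route of calcium out of the heart muscle cell. Its level was 9.29, 10.8, 13.1, 7.74 and 9.68 FPKM in LPS+ART and 16.8, 19.4, 20.5, 18.6 and 20.1 FPKM in LPS+Vehicle. The highest treated heart lay well below the lowest vehicle heart. The mean of 10.1 ± 2.01 FPKM was 1.88-fold lower than 19.1 ± 1.47 FPKM (SD, n = 5 each, log2 fold change -0.87, SE 0.12, limma adjusted p = 6.8e-05). It was called lower after scaling (-0.50, limma adjusted p = 0.00357) and after loess (-0.60, limma adjusted p = 0.0011). The exchanger was also low against the pump with which it competes for cytosolic calcium: Slc8a1 to Atp2a2 was 0.00671 ± 0.00137 in treated and 0.0128 ± 0.00109 in vehicle hearts (SD, n = 5 each; log2 ratio difference -0.88, exact permutation p = 0.00794, adjusted p = 0.0258). After loess, that difference was -0.37 (exact permutation, adjusted p = 0.0619).

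The L-type channel showed an uneven pattern between its pore and its beta subunit. Cacna1c (ENSMUSG00000051331) encodes the pore, Cav1.2. Its level was 7.15, 6.87, 13.5, 13.1 and 8.39 FPKM in LPS+ART and 14, 12.8, 16.9, 12.4 and 13.1 FPKM in LPS+Vehicle. LPS+ART replicates 3 and 4 lay within the vehicle range and the other 3 far below it. Those 2 hearts also held the neutrophil gene S100a9 at 156 and 78.4 FPKM, against 19 to 31.5 in the other treated hearts. S100a9 was picked from 8 neutrophil markers, and its relation to the Cacna1c values was not tested. The Cacna1c means were 9.82 ± 3.27 and 13.8 ± 1.82 FPKM (SD, n = 5 each, log2 fold change -0.50, SE 0.18, limma adjusted p = 0.0299). This call was not stable: it was lost after median-ratio scaling (-0.13, limma adjusted p = 0.593), after loess (-0.21, limma adjusted p = 0.399) and without any one of LPS+ART replicates 1, 2 and 5 and LPS+Vehicle replicates 1 and 3 (limma adjusted p = 0.0546 to 0.0722). Without LPS+ART replicates 3 and 4 the fold change was -0.80 (limma adjusted p = 2.7e-04).

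Cacnb2 (ENSMUSG00000057914) encodes the main beta subunit of the cardiac L-type channel, which carries the pore to the membrane and sets its gating. Its level was 0.672, 0.597, 0.7, 0.991 and 0.649 FPKM in LPS+ART and 6.84, 5.89, 8.48, 2.89 and 5.91 FPKM in LPS+Vehicle. The lowest vehicle heart, replicate 4, still lay far above the highest treated heart. These values rested on 247 to 436 reads in a treated library and 1145 to 6085 in a vehicle library, far above a floor of 3 reads. The mean of 0.722 ± 0.155 FPKM was 8.32-fold lower than 6 ± 2.04 FPKM (SD, n = 5 each). The log2 fold change of -1.97 (SE 0.19, limma adjusted p = 1.1e-05) was the lowest of the 10 genes and number 51 from the bottom of the 13314 genes tested. Adding 1 to each FPKM understates such a low gene, and with 0.1 added the log2 fold change was -2.83 (limma adjusted p = 9.1e-06). It was called lower after scaling (-1.71, limma adjusted p = 3.2e-05) and after loess (-1.58, limma adjusted p = 5.7e-05). Among all genes tested, its level stood at percentile 58.1 in LPS+Vehicle and 12.5 in LPS+ART. The values are per gene and do not tell which of the start sites shown above was used.

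Set against its pore, Cacnb2 was low in every treated heart. The ratio of Cacnb2 to Cacna1c was 0.0939, 0.0869, 0.0517, 0.0754 and 0.0774 in LPS+ART and 0.49, 0.462, 0.502, 0.234 and 0.451 in LPS+Vehicle. The groups did not overlap (log2 ratio difference -1.47, exact permutation p = 0.00794, adjusted p = 0.0258), and without LPS+ART replicate 4 the adjusted p was 0.0516. With 0.1 in place of 1 added to each FPKM, the log2 ratio Cacnb2 to Cacna1c differed by -2.29 (exact permutation, adjusted p = 0.0258). Of the other beta subunit genes, those tested were lower as well: Cacnb1 at 0.494 ± 0.116 against 1.6 ± 0.228 FPKM (limma adjusted p = 1.3e-05) and Cacnb3, chosen after its values were seen, at 0.471 ± 0.143 against 1.34 ± 0.246 FPKM (limma adjusted p = 1.1e-04). Cacnb4, at 0.0921 ± 0.0315 against 0.156 ± 0.0542 FPKM with overlapping groups, was below the filter and not tested. The summed FPKM of Cacnb1 to Cacnb4 was 1.78 ± 0.178 in LPS+ART and 9.09 ± 2.47 in LPS+Vehicle. Cacnb2 made up 40.6 ± 7.36% of that sum in LPS+ART, from 34.6 to 51.3%, and 64.7 ± 6.2% in vehicle hearts, from 54.5 to 69.8% (SD, n = 5 each), with no overlap. Cacna2d1, the alpha2delta subunit and likewise chosen afterwards, stood at 16.7 ± 0.654 against 17.7 ± 1.36 FPKM (log2 fold change -0.08, limma adjusted p = 0.345).

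**Figure D3:**
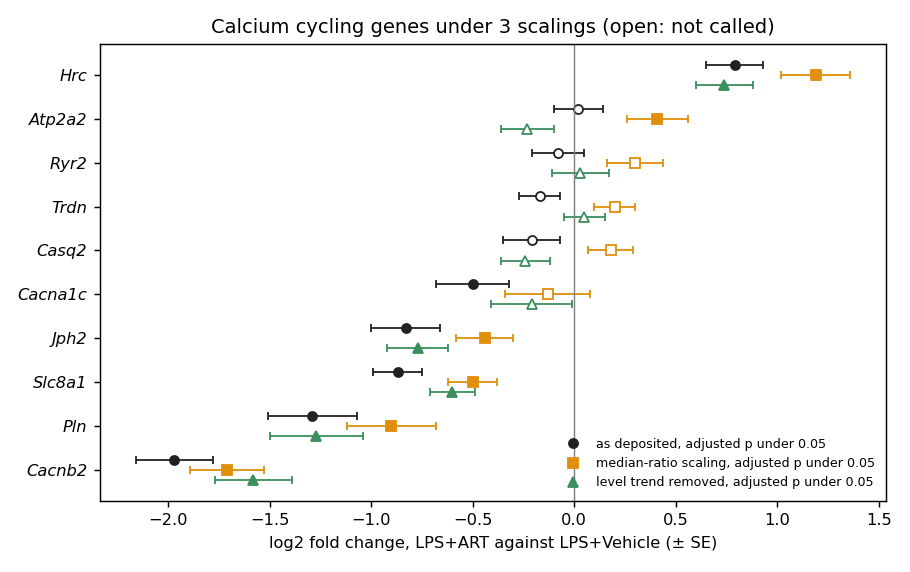
Log2 fold change of each calcium cycling gene between LPS+ART and LPS+Vehicle, with its SE, in the values as deposited (black), after median-ratio scaling (orange) and with the level trend removed (green); filled symbols passed the threshold. Hrc stays right of 0 and Cacnb2, Pln, Slc8a1 and Jph2 left of it in all 3, while Atp2a2 lies at 0.02, 0.41 and -0.23.

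The order of levels differed little between groups at its ends. Atp2a2 was the highest and Cacnb2 the lowest in both, each without overlap with its neighbour. In LPS+Vehicle, Casq2, Pln and Hrc followed Atp2a2 with overlapping ranges, then Jph2 and Ryr2 each apart, then Trdn, Slc8a1 and Cacna1c overlapping in turn. In LPS+ART, Hrc and Casq2 overlapped in second place, Pln, Jph2 and Ryr2 overlapped below them, and Trdn stood apart from Slc8a1 and Cacna1c. Pln thus moved from the range of the luminal buffers in vehicle hearts to that of Jph2 and Ryr2 in treated hearts. Single hearts carried some of the spread: LPS+Vehicle replicate 3 was the highest of its group in 8 of the 10 genes and replicate 4 the lowest in 6, while LPS+ART replicate 3 was the highest in 4 and replicate 2 the lowest in 5.

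Of the 13 ratios tested, 5 passed the threshold, 2 higher and 3 lower in LPS+ART. Jph2 to Cacna1c, Slc8a1 to Cacna1c and Cacna1c to Ryr2 did not, with log2 ratio differences of -0.33, -0.37 and -0.42 (exact permutation, adjusted p = 0.557, 0.271 and 0.0516). Cacna1c to Ryr2 was called with 0.1 added to each FPKM (-0.46, exact permutation, adjusted p = 0.0442) and without LPS+ART replicate 3 (-0.49, exact permutation, adjusted p = 0.0258). Fkbp1b, which encodes the channel-stabilising FKBP12.6, stood at 0.346 ± 0.152 against 0.765 ± 0.276 FPKM (SD, n = 5 each, limma adjusted p = 0.0156), a call lost after scaling (limma adjusted p = 0.0922) and after loess (limma adjusted p = 0.24). Its ratio to Ryr2 differed by -0.30 (exact permutation, adjusted p = 0.103), but by -0.86 and called with 0.1 in place of 1 added to each FPKM (exact permutation, adjusted p = 0.0442). That of Sln to Atp2a2 differed by -0.06 (exact permutation, adjusted p = 0.897).

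The 10 genes were set among 132 genes of the wider pathway, sorted by role into 8 lists, of which 114 passed the filter. Of these, 13 were higher and 63 lower (11.4% and 55.3%), near the shares of all genes given above, and after scaling 30 were higher and 31 lower. Among genes of SR release and luminal buffering, 4 of 20 were higher and 8 lower (20% and 40%, against 11.8% and 52.9% of all genes). After median-ratio scaling 5 were higher and 3 lower (25% and 15%, against 29.9% and 30.3%). Besides Hrc, the rises included Calm2, one of the calmodulin genes (142 ± 15.9 against 77.1 ± 3.41 FPKM, log2 fold change 0.86), and Lmcd1, a LIM-domain cofactor and no part of the release unit itself (61.3 ± 27.4 against 25.9 ± 3.44 FPKM, log2 fold change 1.13). Speg, a kinase of the junctional SR, and Hax1, a partner of phospholamban, fell by 1.02 and 1.00 on the log2 scale. Of 16 genes of the pump and its regulators, 2 were higher and 8 lower (12.5% and 50%), near the shares of all genes. After median-ratio scaling 6 were higher and 5 lower (37.5% and 31.2%, against 29.9% and 30.3%). The phosphatase-targeting subunit Ppp1r3a stood at 52.5 ± 20.7 against 106 ± 5.86 FPKM and the kinase Dmpk at 44.1 ± 4.91 against 83.7 ± 11.7 FPKM. S100a1, which activates the pump and the release channel, was called at 374 ± 22.7 against 329 ± 19.4 FPKM (limma adjusted p = 0.034), but not after loess (limma adjusted p = 0.313), without any one of LPS+ART replicates 4 and 5 and LPS+Vehicle replicates 2, 3 and 5 (limma adjusted p = 0.0662 to 0.0795) or with LPS+Vehicle replicates 2 and 5 averaged (limma adjusted p = 0.0698).

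The list of kinases and calcineurin, with their regulatory subunits, inhibitors, anchors and Nfatc3, gave 2 of 19 higher and 12 lower (10.5% and 63.2%, against 11.8% and 52.9% of all genes). After scaling 4 were higher and 3 lower (21.1% and 15.8%, against 29.9% and 30.3%). Camk2d, the main cardiac calmodulin kinase II, rose to 12.5 ± 0.935 from 8.53 ± 1.07 FPKM, while Camk2g fell to 5.52 ± 1.26 from 11.5 ± 0.959 and Prkacb, a catalytic subunit of protein kinase A, to 5.87 ± 0.834 from 9.45 ± 0.582. Rcan1, an inhibitor of calcineurin, showed the largest rise of the pathway genes tested, with 288 ± 77.1 against 62.3 ± 35 FPKM (log2 fold change 2.31, limma adjusted p = 7.6e-05). Around Jph2, 2 of 10 dyad and tubule genes were higher and 4 lower (20% and 40%, against 11.8% and 52.9% of all genes). After median-ratio scaling 5 were higher and 2 lower (50% and 20%, against 29.9% and 30.3%), so the balance of this list depended on the scaling. Dst, a cytoskeletal linker, rose by 0.50, and Mtm1, a phosphoinositide phosphatase, fell by 0.60. The fall of the membrane repair gene Dysf (-0.42) was lost after scaling (limma adjusted p = 0.708), after loess (limma adjusted p = 0.158) and without LPS+ART replicates 3 and 4 (limma adjusted p = 0.0529). Around the channel genes, 1 of 14 was higher and 6 lower (7.14% and 42.9%), and after scaling 4 and 5 (28.6% and 35.7%). The gene higher before scaling was Rrad, whose product binds beta subunits and restrains the L-type channel, at 258 ± 133 against 64.5 ± 14 FPKM (log2 fold change 1.84, limma adjusted p = 4.7e-04). Its relative Rem1 fell to 0.766 ± 0.228 from 2.61 ± 0.713 FPKM.

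Around Slc8a1, all 10 tested genes of sarcolemmal exchange and the sodium pump passed the threshold, 2 higher and 8 lower (20% and 80%, against 11.8% and 52.9% of all genes), with a median log2 fold change of -0.66 against -0.27. After scaling 2 were higher and 5 lower (20% and 50%, against 29.9% and 30.3%). With 10 genes these counts are a description of the list. The sodium pump sets the gradient that the exchanger uses. Its subunit gene Atp1b2 fell to 0.747 ± 0.213 from 3.66 ± 0.65 FPKM (SD, n = 5 each, limma adjusted p = 5.7e-06). Fxyd1, which encodes the pump regulator phospholemman, rose to 52.6 ± 4.58 from 44.6 ± 2.62 FPKM (SD, n = 5 each, limma adjusted p = 0.0184).

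**Figure D4:**
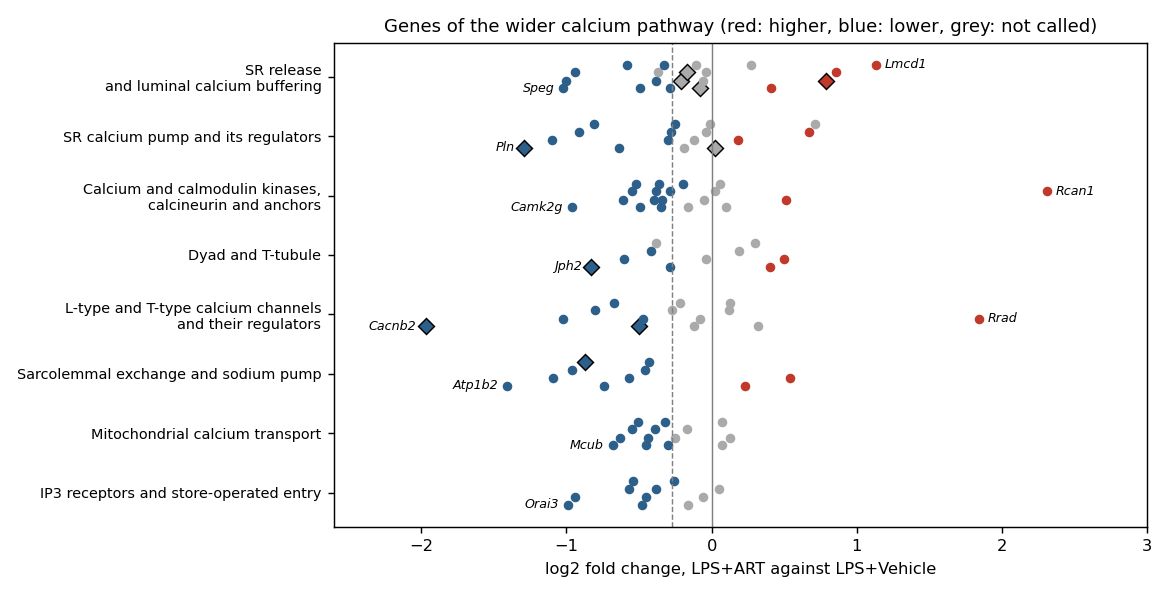
Log2 fold change of the 114 tested pathway genes, one row per list of roles, with the calcium cycling genes as diamonds. The lowest gene of each row is named, and the highest where it lies above 1. The dashed line marks the median of all genes tested, -0.27. Cacnb2 lies farthest left and Rcan1 farthest right.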

How the data were processed

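RNA of 5 LPS+ART and 5 LPS+Vehicle hearts was read in pairs after oligo-dT selection, per the labels' protocols. The header names only the samples; judged from its numbers, the table the authors deposited holds FPKM. The submitters' processing notes name mm9 as the build, which was not checked here. No aligner, counter, annotation or strand option is given in the sources used here. Reads were recovered from FPKM and GENCODE M21 exon lengths, whole within 0.01 read in all libraries for 29005 genes (98.2%). In a 1 kb gene, 3 reads are 0.0553 to 0.1 FPKM, which covers counting error only. Mates appear to have been counted apart, since 64% of read numbers from 1 to 4 were even.

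The test was limma-trend (limma 3.58.1, R 4.3.3) on log2(FPKM + 1), for genes that averaged 0.5 FPKM or more, with group as the only term and Benjamini-Hochberg adjustment over all 13314 genes. Fold changes on this scale understate those of low genes. Ratios within a library were compared by two-sided exact permutation (scipy 1.17.1), adjusted over 13 pairs. The code was tested on simulated data. Alternatives were scaling, loess, pseudocounts, filters, a fold minimum, a replicate block, recovered reads in limma-voom (chosen after seeing the data), averaging of the near-identical libraries and left-out libraries. The labels do not say that libraries are separate animals beyond the group sizes, so p-values reflect variation among these libraries.

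The genes and lists were chosen with earlier results of these data known. Beside the 10 genes, the text names up to 2 called rises and 2 falls of each pathway list with at least 1 FPKM, the genes of the ratios, and Sln, Strit1 and Fkbp1b. Some genes that this rule names are not reported here. Figures were drawn with matplotlib 3.10.9.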

Additional observations from a re-analysis of the deposited data

Results flagged for a closer look

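In 78 groups of 5 hearts, taken over 39 named genes, the highest or lowest heart was set against the range of its group by Dixon's criterion (0.71 for 5 values). Chance flags about 1 group in 20, and 8 groups were flagged. Of the calcium cycling genes, Hrc stood at 218 FPKM in LPS+ART replicate 5, below the 285 to 311 FPKM of the other treated hearts. Cacnb2 stood at 0.991 FPKM in LPS+ART replicate 4, above the 0.597 to 0.7 FPKM of the others.

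Among the pathway genes, Lmcd1 stood at 110 FPKM in LPS+ART replicate 2 against 42.7 to 53.9 in the others, and without that heart its log2 fold change was 0.90 (limma adjusted p = 8.8e-05). Sln stood at 5.5 FPKM in LPS+ART replicate 5 against 0 to 0.0989. In LPS+Vehicle, Calm2 stood at 83.2 FPKM in replicate 2 against 74.7 to 76.1, and Cacnb1 at 2 FPKM in replicate 3 against 1.43 to 1.57. Replicate 4 of that group was low for Afg3l2, at 23 FPKM against 26 to 26.9, and for Dst, at 12.6 FPKM against 14.9 to 15.7.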

How the results depend on the processing

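The direction of Pln, Jph2, Slc8a1, Cacnb2 and Hrc and their side of the threshold were kept under every alternative run. Of 209 values of the 10 genes under alternatives, 197 kept direction and side, 3 gained a call (Atp2a2 under both scalings, Casq2 without LPS+ART replicate 1) and 9 lost it (Cacna1c). TMM and median-ratio scaling gave 2 genes higher instead of 1. For the pathway lists, TMM gave 31 higher and 31 lower, median-ratio scaling 30 and 31, loess 24 and 38, and a fold minimum of 0.5 gave 33 lower. Over all genes, instead of 1565 and 7037, TMM gave 4042 higher and 3990 lower, median-ratio scaling 3975 and 4034, loess 3856 and 3827, and the fold minimum 849 and 4148. The cause of the shift between scalings was not tested. With each library left out in turn, the 10 genes gave 1 higher and 4 to 5 lower, the pathway 11 to 14 higher and 58 to 65 lower, all genes 1401 to 1564 higher and 6530 to 7062 lower, and the ratios 3 to 5 calls. Of 13 ratios, 5 were called as given and 7 at a pseudocount of 0.1 (Cacna1c and Fkbp1b to Ryr2 in addition). With loess 3 were called, and without LPS+ART replicates 3 and 4 the number was 0. Fewer splits raise the smallest p there (exact permutation, adjusted p = 0.058 for Pln, Slc8a1 and Cacnb2). Hrc to Casq2 and Hrc to Ryr2 lay above that value (exact permutation, adjusted p = 0.0929 and 0.116). Replicate numbers did not pair the samples (same-number correlations 0.147, -0.0702, 0.123, -0.021 and 0.182). With the replicate number as a block, 1533 genes were higher and 6945 lower, the 10 genes stayed at 1 and 5, Fxyd1 lost its call (limma adjusted p = 0.0529), and 0 ratios were called, since 5 pairs cannot reach the threshold by exact permutation. Cacna1c has no value from recovered reads, where its reads were not whole.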

Other observations

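The other 2 lists of the calcium pathway concern calcium transport away from the SR release unit. Of 14 genes of mitochondrial calcium transport, 9 were lower and 0 higher (64.3% lower, against 52.9% of all genes lower and 11.8% higher). After median-ratio scaling 4 were lower and 3 higher (28.6% and 21.4%, against 30.3% and 29.9%), near the shares of all genes. Mcub, which blocks the uniporter pore, stood at 0.856 ± 0.301 against 1.95 ± 0.389 FPKM (SD, n = 5 each, limma adjusted p = 8.0e-04). Afg3l2, a protease of the inner membrane, was at 16.3 ± 2.76 against 25.6 ± 1.54 FPKM (limma adjusted p = 4.5e-04). Of 11 tested genes of IP3 receptors and store-operated entry, 8 were lower and 0 higher (72.7% lower), and after scaling 4 and 1 (36.4% and 9.09%). Itpr2, the main IP3 receptor of heart muscle cells, stood at 0.384 ± 0.0381 against 1.67 ± 0.266 FPKM (limma adjusted p = 6.2e-06). Orai3, a store-operated channel subunit, stood at 4.32 ± 0.837 against 9.46 ± 0.673 FPKM (limma adjusted p = 1.7e-05).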
